A study of Homo sapiens with 9 samples.

Results

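In MDA-MB-231, a human cell line from triple-negative breast cancer, 96 genes were lower in cells that overexpress TLX, the product of NR2E1, than in control cells, and lower again when the same overexpressing cells received an siRNA against TLX. They were chosen on measured values. Each of the 11886 genes with a mean log2 CPM (log2 of read counts scaled to library size) of 1 or more over 9 libraries was reduced to 1 row per symbol, and a gene was kept where its group mean was at least 0.5 lower, on the log2 scale, in both steps. The 96 genes are 0.808% of the 11886. The first step is the difference between TLX-overexpressing cells with a universal control siRNA (TLX+siCTL, libraries S4 to S6) and control cells with that siRNA (CTL+siCTL, S1 to S3). The second step is the difference between TLX-overexpressing cells given the TLX siRNA (TLX+siTLX, S7 to S9) and TLX+siCTL.

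There were 3 libraries per group, made from cells transfected for 48 h. The labels name MDA-MB-231 as the line of all 9 samples, and PC3, the name of a prostate line, stands unexplained in the titles of the controls. No source used here gives the way in which TLX was overexpressed, whether those cells are 1 clone or a pool, or the siRNA sequences. Nothing says that the replicates were separate cultures, so the spread between libraries may be technical. The first step changed the cells as well as TLX, and the second step changed the siRNA as well as TLX, so effects of the cell line used and of the siRNA itself cannot be told apart from those of TLX. In bulk RNA, less RNA per cell and fewer cells with the RNA cannot be told apart either.

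TLX is an orphan nuclear receptor known mainly as a transcriptional repressor in neural stem cells, where it recruits corepressors to a short half-site in its target genes. Several groups of the 96 genes belong to well-known stress and lipid programmes. When unfolded proteins collect in the endoplasmic reticulum, the sensors IRE1 (encoded by ERN1), PERK and ATF6 raise chaperones such as HSPA5 and, through ATF4, a set of genes that includes DDIT3, TRIB3 and ATF3. Low sterol in the same organelle releases SREBP factors, which raise the cholesterol synthesis enzymes. PTGS2 (COX-2) makes prostaglandins from arachidonic acid that the phospholipase PLA2G4A frees from membranes, and in breast cancer cells it is often raised together with cytokines that depend on NF-kB.

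The libraries had effective sizes of 73.9 to 91.8 M reads. NR2E1 (ENSG00000112333, chr6:108166058-108188809, GRCh38, plus strand) itself read -4.59, -4.28 and -4.50 in S1 to S3, 0.28, -0.84 and 0.23 in S4 to S6, and -2.61, -3.40 and -1.77 in S7 to S9 log2 CPM. NR2E1 was highest in TLX+siCTL, at a mean of -0.11, and between the other groups in TLX+siTLX. Its order was thus not that of the 96 genes, which ended lowest in TLX+siTLX. Its mean over the 9 libraries was -2.39, below the limit of 1 used for the genes. Its values rest on few reads, down to an estimated 1.35 in the lowest library. Of 7 markers of mesenchymal-type breast lines 6 had a mean log2 CPM of 1 or more, VIM, CD44 and AXL among them, with a summed level of 3798 to 3902 CPM in CTL+siCTL, 4197 to 4272 CPM in TLX+siCTL and 5556 to 5857 CPM in TLX+siTLX. Of 8 prostate markers 2 passed, and the 8 summed to 39.6 to 44.7 CPM over the 9 libraries, while those that define the tissue, such as KLK3, had means below 1. None of 3 leukocyte markers passed, at 0.695 to 1.87 CPM in sum. Of 7 luminal breast markers 4 passed (GATA3, KRT8, KRT18 and SPDEF), while ESR1, PGR and FOXA1 did not. The 7 summed to 725 to 752 CPM in CTL+siCTL, 519 to 538 CPM in TLX+siCTL and 705 to 793 CPM in TLX+siTLX. Of 4 fibroblast markers 1 passed, COL1A1. In the same order of groups the 4 summed to 9.06 to 9.57, 3.94 to 5.29 and 7.50 to 10.2 CPM. The summed mesenchymal level was higher after each step without overlap between the groups, but its genes went different ways: AXL averaged 8.98, 10.11 and 10.40 log2 CPM and CAV1 7.02, 7.98 and 8.97 in CTL+siCTL, TLX+siCTL and TLX+siTLX, while VIM averaged 10.66, 10.02 and 10.69 and ZEB1 6.69, 6.30 and 6.17. The part of these genes in the results was not tested.

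**Figure D1:**
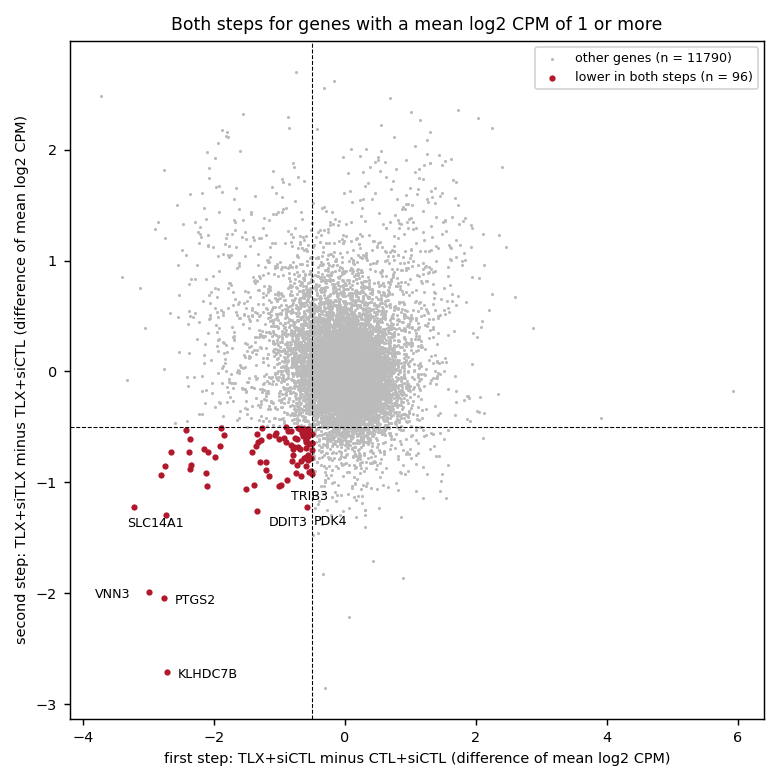
Each point is 1 gene with a mean log2 CPM of 1 or more (n = 11886). The x axis is the first step and the y axis the second step, both as differences of group means of log2 CPM, and dashed lines mark the limit of -0.5. The 96 genes lower in both steps (red) fill the lower left corner, with KLHDC7B, PTGS2 and VNN3 set apart from the rest.

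Of the 11886 genes, 1586 were lower by 0.5 or more in the first step, and the 96 genes are 6.05% of these. In the second step 620 genes were lower by 0.5 or more, of which the 96 genes are 15.5%. Of the genes that were lower in the first step, 1069 stayed within 0.5 in the second step and 421 were higher by 0.5 or more in it. Another 319 genes were higher by 0.5 or more in both steps. The differences of the 96 genes had a median of -0.81 in the first step (from -3.22 to -0.50) and of -0.69 in the second (from -2.72 to -0.50), against medians of 0.01 and 0.00 over all 11886 genes, which the choice of members fixes. From CTL+siCTL to TLX+siTLX the 96 genes were lower by a median of 1.54 on the log2 scale, 32 of them by 4-fold or more and 13 by 8-fold or more.

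The first step was the larger for 67 of the 96 genes and the second for 29. Its share of a gene's total difference ran from 32.5%, in PDK4, to 82.2%, in PLA2G4A, with a median of 54.6%. Only 10 genes were lower by 2-fold or more in both steps: KLHDC7B, VNN3, PTGS2, SLC14A1, RND1, CACNG7, DDIT3, LAMP3, SLC22A15 and STARD4. In all 96 genes the 3 TLX+siCTL libraries lay below the 3 control libraries, and 35.4% of all genes tested showed this pattern. In 93 of the 96 the TLX+siTLX libraries also lay below those of TLX+siCTL, against 29.6% of all genes. The 3 exceptions were PTHLH, ZNF555 and CDKL3. With limma, which shares an estimate of the spread between genes, 95 of the 96 genes were called lower in the first step, where 27.9% of all genes were called lower and 29.6% higher. In the second step 91 were called lower, against 22.5% of all genes called lower and 24.3% higher, and over the total difference all 96 were called, against 31.7%. Both steps were used to choose the genes, so these counts are a description. CCL20, PLA2G4A, PTHLH, MSMO1 and CDKL3 were the 5 not called in the second step, and CDKL3 was also the 1 not called in the first.

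**Figure D2:**
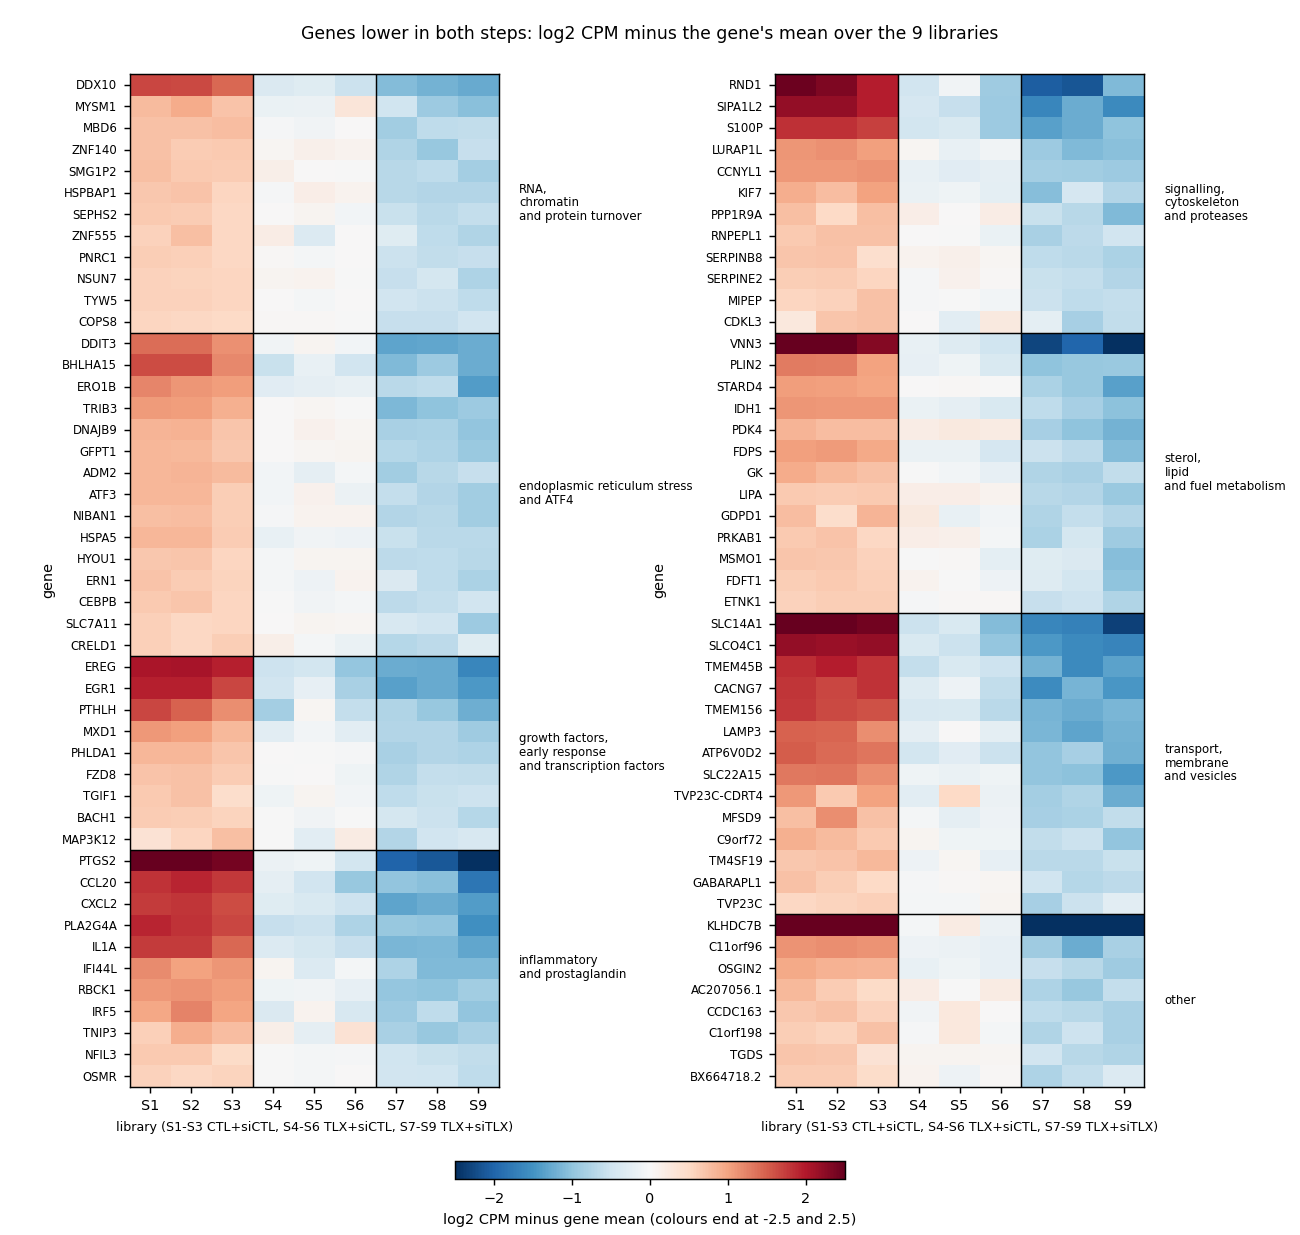
Rows are 94 of the 96 genes in 8 groups of role, and columns are the 9 libraries. Colour is log2 CPM minus the gene's mean over the 9 libraries, red above and blue below. CTL+siCTL libraries are red and TLX+siTLX libraries blue in every row, TLX+siCTL lies between them, and S9 is the darkest blue of its group for several sterol genes.

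KLHDC7B and VNN3 had the largest total differences of the 96 genes. KLHDC7B (ENSG00000130487, chr22:50545891-50551023, plus strand) encodes a kelch repeat protein. Its log2 CPM read 4.46, 4.53 and 4.35 in S1 to S3, 1.68, 1.93 and 1.58 in S4 to S6, and -0.87, -1.10 and -0.99 in S7 to S9. Both steps were nearly the same size, from 4.45 ± 0.09 to 1.73 ± 0.18 and -0.99 ± 0.11 (mean ± SD, n = 3). This is a difference of -2.72 in the first step and -2.72 in the second, 43.2-fold in all. The TLX+siTLX values rest on few reads: the counts rebuilt from the log2 values were 1771, 1759 and 1503 for S1 to S3, 291, 298 and 235 for S4 to S6, and 42.4, 33.9 and 41.6 for S7 to S9. On a log2(CPM + 1) scale, which shrinks low values, the second step of KLHDC7B was -1.52. Among 7 measured kelch domain genes of the KLHDC family KLHDC7B was the one member, and limma called 2 of the 7 lower and 2 higher in the first step and 2 lower and 1 higher in the second. Its relatives KLHDC1 and KLHDC2 differed by -0.01 and -0.19 in the first step and by 0.05 and -0.08 in the second, and both values of KLHDC1 changed sign after quantile normalization.

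VNN3 (ENSG00000093134, chr6:132722787-132734765, minus strand) belongs to the vanin family, whose member VNN1 is a pantetheinase that releases cysteamine and vitamin B5 from pantetheine. It read 5.17, 5.14 and 4.61 in S1 to S3, 2.13, 1.998 and 1.83 in S4 to S6, and 0.02, 0.33 and -0.37 in S7 to S9. The groups did not overlap, and S3 lay 0.53 or more below the other control libraries. Group means were 4.97 ± 0.31, 1.98 ± 0.15 and -0.01 ± 0.35, so that VNN3 was 7.95-fold lower in the first step, 3.98-fold lower in the second and 31.6-fold lower in all. On the log2(CPM + 1) scale its second step was -1.31. VNN1 went the other way in the first step, from 1.60 to 2.14, and was at 1.89 in TLX+siTLX. Of 11 measured genes of vanins and coenzyme A recycling, limma called 3 lower and 2 higher in the first step and 4 lower and 1 higher in the second.

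**Figure D3:**
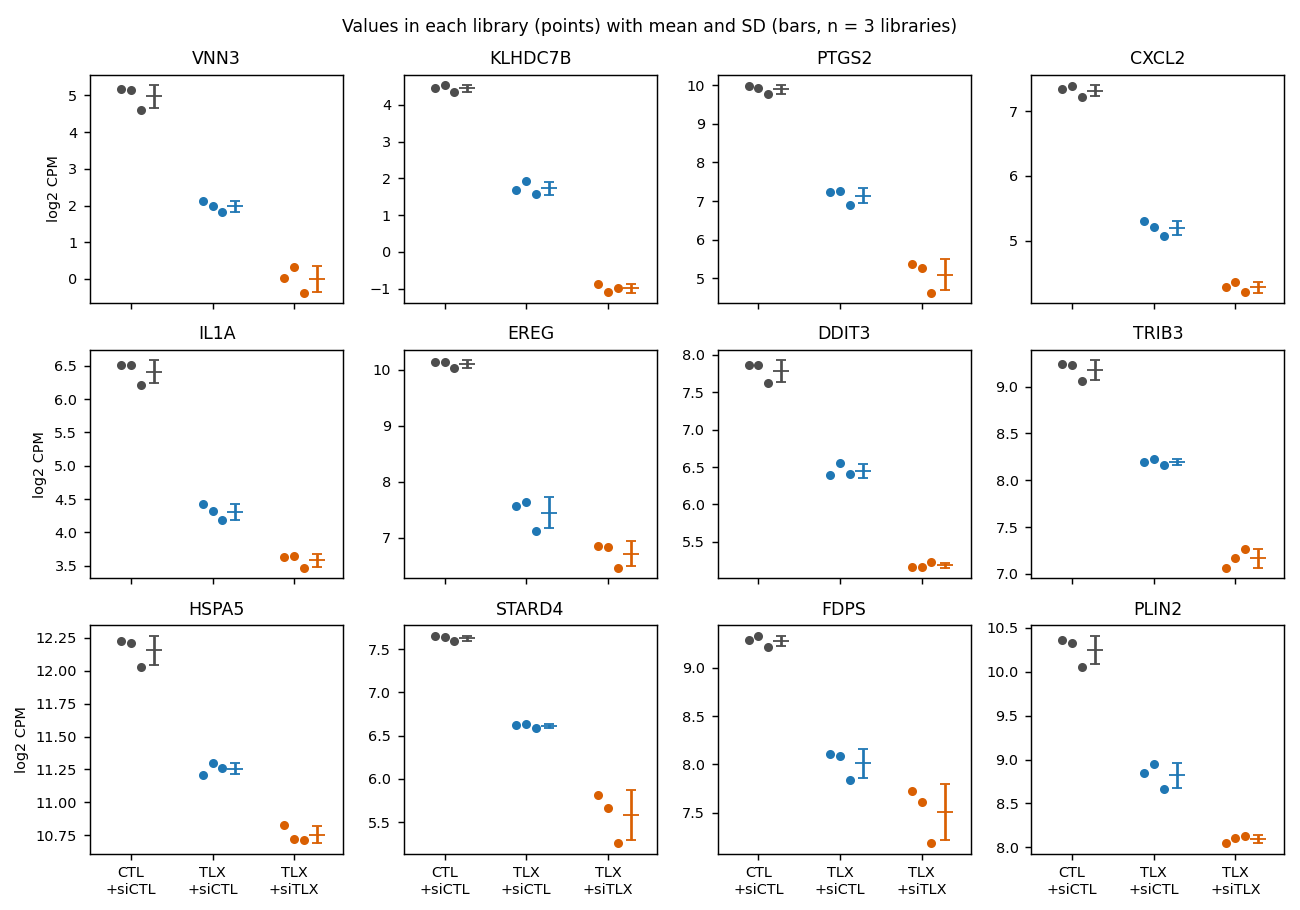
Each panel is 1 gene, with log2 CPM on the y axis (own range per panel, not starting at 0) and the 3 groups on the x axis. Points are libraries in the order S1 to S9, and bars are the mean and SD of 3 libraries. In all 12 genes the 3 groups stand apart. The last library of TLX+siTLX, S9, is the lowest in VNN3, PTGS2, CXCL2, IL1A, EREG, HSPA5, STARD4 and FDPS. It is not the lowest in KLHDC7B, DDIT3, TRIB3 and PLIN2.

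Among the genes of endoplasmic reticulum stress and ATF4 were 15 of the 96. Their median difference was -0.76 in the first step and -0.67 in the second, and the first step was the larger in 9. The group held sensors, chaperones and transcription factors. Upstream sequence is shown for 4 of them because it holds motifs of this response in 3 and an AP-1 motif in the fourth. Stretches of the 250 bases before the start in RefSeq (GRCh38.p14, minus strand in all 4) are printed 5′ to 3′ with the motif in capitals: the endoplasmic reticulum stress response element in HSPA5 and, on the opposite strand, in ERO1B, the site TGACGTGG bound by XBP1 and ATF6 in HYOU1, and the AP-1 site in DDIT3.
HSPA5, chr9:125241351-125241449: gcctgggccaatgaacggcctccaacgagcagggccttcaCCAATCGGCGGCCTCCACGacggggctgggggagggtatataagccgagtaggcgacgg
ERO1B, chr1:236282143-236282208: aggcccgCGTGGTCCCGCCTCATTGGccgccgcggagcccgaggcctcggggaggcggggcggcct
HYOU1, chr11:119057346-119057433: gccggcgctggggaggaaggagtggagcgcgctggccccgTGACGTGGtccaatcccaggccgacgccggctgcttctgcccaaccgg
DDIT3, chr12:57520709-57520764: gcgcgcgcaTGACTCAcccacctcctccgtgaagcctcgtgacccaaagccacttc

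The response element was searched as CCAAT and CCACG with 9 bases between them, on both strands. It stood in 2 of the 79 members with a window (2.53%) and in 0.171% of 9357 genes. TGACGTGG stood in 1 member (1.27%) and in 0.962% of genes. The C/EBP-ATF element TTGCATCA that ATF4 can bind stood in 0 of the 79 and in 0.577% of genes, and the cAMP response element TGACGTCA, which shares 6 letters with TGACGTGG, in 2 (2.53%; DDX10 and GABARAPL1) and in 3.59%. The AP-1 site was searched in a wide form, TGANTCA with any base at N. This form stood in 9 members (11.4%) and in 5.80% of genes. The 9 were BACH1, CCDC163, DDIT3, HSPA5, IL1A, SERPINB8, TGIF1, TM4SF19 and TMEM156. In the first matching windows of HSPA5 and TGIF1 the letters were TGAATCA, and in that of DDIT3 TGACTCA. The SREBP site TCACNCCAC stood in 1 member (1.27%; CRELD1) and in 1.18% of genes. Among cholesterol genes FDPS, MSMO1 and STARD4 did not hold it, and FDFT1 had no window. The E-box form TCACGTGA, called CLEAR, stood in 2 members (2.53%; CDKL3 and HSPBAP1) and in 2.19% of genes. A match describes the letters and is not a binding site.

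The sensor IRE1 is encoded by ERN1, which read 7.27, 7.20 and 7.12 in S1 to S3, 6.52, 6.43 and 6.65 in S4 to S6, and 6.21, 5.93 and 5.79 in S7 to S9. S4 to S6 lay below all control libraries and S7 to S9 below S4 to S6, with S9 lowest. HSPA5 (BiP, the chief chaperone of the organelle, chr9:125234853-125241330) read 12.23, 12.21 and 12.03 in S1 to S3, 11.21, 11.30 and 11.26 in S4 to S6, and 10.83, 10.72 and 10.71 in S7 to S9. Its second step, -0.50, was the closest of all 96 genes to the limit, and the first was -0.90. HYOU1, a chaperone of the HSP70 family, read 9.16, 9.18 and 9.02 in S1 to S3, 8.43, 8.56 and 8.56 in S4 to S6, and 7.84, 7.86 and 7.80 in S7 to S9, with no overlap between groups and steps of -0.60 and -0.69. HYOU1 is listed on more than 1 row, so its reads can be split. DNAJB9, the cochaperone ERdj4, read 8.08, 8.10 and 7.92 in S1 to S3, 7.22, 7.33 and 7.26 in S4 to S6, and 6.41, 6.43 and 6.23 in S7 to S9. Its second step, -0.92, was larger than its first, -0.76.

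The transcription factors of this group ended lowest in the same libraries. DDIT3 (CHOP, a C/EBP-like factor of prolonged stress, chr12:57516588-57521737, minus strand) read 7.87, 7.87 and 7.62 in S1 to S3, 6.39, 6.55 and 6.40 in S4 to S6, and 5.16, 5.17 and 5.23 in S7 to S9. The 3 TLX+siTLX values lay within 0.06 of each other and more than 1 below all others, and the steps were -1.34 and -1.26, 6.06-fold in all. The 5′ end of DDIT3 overlaps by 1.03 kb with MBD6, also one of the 96 (steps -0.77 and -0.68), on the opposite strand. The kit keeps strand, but no source used here gives how strand was used in counting. TRIB3, a pseudokinase induced by ATF4 and DDIT3, read 9.25, 9.23 and 9.06 in S1 to S3, 8.19, 8.22 and 8.16 in S4 to S6, and 7.06, 7.17 and 7.27 in S7 to S9, and its steps were -0.99 and -1.03. ATF3, an early stress factor, read 6.62, 6.61 and 6.40 in S1 to S3, 5.72, 5.89 and 5.64 in S4 to S6, and 5.19, 5.05 and 4.92 in S7 to S9, with steps of -0.79 and -0.70. CEBPB, the C/EBP beta factor, read 9.02, 9.06 and 8.92 in S1 to S3, 8.36, 8.28 and 8.31 in S4 to S6, and 7.72, 7.77 and 7.90 in S7 to S9. S9 was highest of its group in CEBPB and TRIB3 and lowest in ATF3.

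SLC7A11, the cystine importer xCT and a target of both ATF4 and NRF2, read 10.16, 10.10 and 10.10 in S1 to S3, 9.59, 9.65 and 9.62 in S4 to S6, and 9.18, 9.09 and 8.66 in S7 to S9. Its first step, -0.50, was the closest to the limit of all 96 genes, and S9 stood 0.44 below S8 and 0.52 below S7. The remaining 6 genes of the group had total differences from -1.12 (CRELD1) to -2.58 (BHLHA15, the secretory cell factor MIST1). Among them were ERO1B, an oxidase of disulfide formation (-1.35 and -0.67), GFPT1, which feeds the hexosamine pathway (-0.73 and -0.85), ADM2, a peptide hormone gene induced by ATF4 (-0.94 and -0.60), and NIBAN1 (-0.67 and -0.81). In ERO1B the second step was -0.42 without S9.

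A list of 35 measured genes of the unfolded protein response and of ATF4 holds 8 of these members. In the first step limma called 27 of the 35 lower and 4 higher, with a median difference of -0.50, where all genes had a median of 0.01. In the second step 23 were called lower and 3 higher, with a median of -0.33 beside -0.00, and without S9 these were 22 and 3. Over the 27 genes of the list that are not members, 19 were called lower and 4 higher in the first step and 15 lower and 3 higher in the second. CHAC1, a glutathione-degrading enzyme and the next gene of the list after DDIT3 and TRIB3, differed by -0.36 in the first step (SE 0.08, limma adjusted p = 0.00775) and by -0.31 in the second (SE 0.08, limma adjusted p = 0.0215). In the first step the 2 lists that hold SLC7A11 had calls in both directions, and in the second most of their calls were lower. Of 28 genes of NRF2 and glutathione, 13 were called lower and 7 higher in the first step and 21 lower and 4 higher in the second. Of 22 genes of amino acid transport and tRNA synthetases, 8 were called lower and 10 higher in the first step and 13 lower and 0 higher in the second.

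Sterol, lipid and fuel metabolism held 14 of the 96 genes, VNN3 among them, with median differences of -0.72 and -0.69. Enzymes of cholesterol synthesis come first. FDPS, which makes farnesyl diphosphate, read 9.29, 9.33 and 9.22 in S1 to S3, 8.11, 8.09 and 7.84 in S4 to S6, and 7.72, 7.61 and 7.18 in S7 to S9. FDFT1, squalene synthase, read 7.53, 7.57 and 7.52 in S1 to S3, 7.01, 6.91 and 6.79 in S4 to S6, and 6.60, 6.45 and 5.91 in S7 to S9, and MSMO1, a sterol methyl oxidase, read 8.69, 8.67 and 8.58 in S1 to S3, 7.99, 8.03 and 7.76 in S4 to S6, and 7.70, 7.64 and 6.93 in S7 to S9. In these 3 genes S9 was the lowest of the 9 libraries, by 0.43 to 0.71 from S8, and the second step was -0.51, -0.58 and -0.51. FDFT1 is listed on more than 1 row and its identifier is outside the GENCODE 29 annotation.

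The second step of these enzymes was smaller without S9. Without that library it was -0.35 in FDPS, -0.38 in FDFT1 and -0.26 in MSMO1, all short of the limit of -0.5 that they had passed with it. FDPS and MSMO1, close to the limit, also dropped out without S4 and without S5, and all 3 genes with group medians. STARD4, which carries cholesterol between membranes, read 7.65, 7.64 and 7.59 in S1 to S3, 6.62, 6.63 and 6.59 in S4 to S6, and 5.82, 5.67 and 5.25 in S7 to S9. Its steps were -1.01 and -1.03, and without S9 the second was -0.87. The first step of these 4 cholesterol genes ran from -0.64 to -1.27 and does not involve S9. NR2E1 was higher in S9 than in S7 and S8, at -1.77 against -2.61 and -3.40, and its part in these values was not tested.

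Of 26 measured genes of cholesterol synthesis and SREBP, 5 are members. Limma called 19 of the 26 lower and 1 higher in the first step, with a median of -0.69, and 8 lower and 2 higher in the second, with a median of -0.30. Without S9 the second step had 7 lower and 2 higher, and a median of -0.12. HMGCS1, an early enzyme of the pathway, differed by -1.17 in the first step (SE 0.20, limma adjusted p = 0.00199) and by -0.32 in the second (SE 0.20, limma adjusted p = 0.341). MVK, mevalonate kinase, differed by -0.87 (SE 0.11, limma adjusted p = 0.00038) and by 0.15 (SE 0.11, limma adjusted p = 0.449). The 21 genes that are not members had 14 called lower in the first step and 4 in the second.

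PLIN2, which coats lipid droplets, read 10.36, 10.32 and 10.06 in S1 to S3, 8.85, 8.95 and 8.67 in S4 to S6, and 8.05, 8.11 and 8.13 in S7 to S9. The 3 TLX+siTLX libraries were within 0.08 of each other, and the steps were -1.43 and -0.73, 4.44-fold in all. PLIN2 was the one member among 27 measured genes of fatty acid and triglyceride metabolism, of which 16 were called lower and 3 higher in the first step and 9 lower and 3 higher in the second. The other genes of the group had total differences from -1.22 (ETNK1, ethanolamine kinase) to -1.92 (IDH1, the cytosolic isocitrate dehydrogenase). PDK4, the kinase that shuts off pyruvate dehydrogenase, had most of its difference in the second step (-0.59 and -1.22), as had LIPA, the lysosomal acid lipase (-0.51 and -0.92). GK (glycerol kinase), PRKAB1 (a subunit of the energy sensor AMPK) and GDPD1 differed by -0.55 to -0.91 in the first step and by -0.64 to -0.78 in the second.

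**Figure D4:**
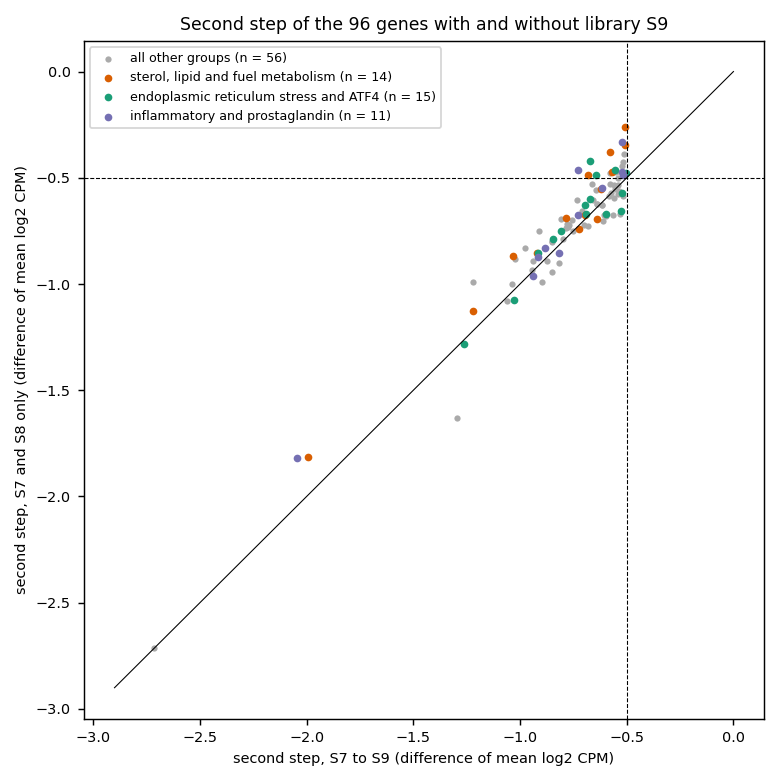
Each point is 1 of the 96 genes. The x axis is the second step with S7 to S9 and the y axis the second step with S7 and S8 only, both as differences of mean log2 CPM, with the line of equality and dashed limits at -0.5. All 96 points are below 0 on both axes, and 18 lie above the horizontal limit, FDPS, FDFT1 and MSMO1 among them.

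Inflammatory and prostaglandin genes made up 11 of the 96, with median differences of -1.29 in the first step and -0.73 in the second. In 10 of the 11 the first step was the larger. PTGS2 (COX-2, ENSG00000073756, chr1:186671791-186680427, minus strand) read 9.99, 9.93 and 9.77 in S1 to S3, 7.23, 7.26 and 6.91 in S4 to S6, and 5.38, 5.26 and 4.63 in S7 to S9. Every library of TLX+siCTL lay more than 2 below every control library, and S9 was 0.63 below S8. Group means were 9.90 ± 0.11, 7.13 ± 0.20 and 5.09 ± 0.40, which is 6.79-fold lower in the first step, 4.13-fold in the second and 28.1-fold in all. PLA2G4A, the cytosolic phospholipase A2 that supplies PTGS2 with arachidonic acid, is its neighbour on chromosome 1, with 149 kb between the genes. It read 3.43, 3.32 and 3.18 in S1 to S3, 0.94, 0.97 and 0.74 in S4 to S6, and 0.57, 0.53 and -0.02 in S7 to S9. Nearly all of its difference was in the first step, -2.43, and the second was -0.52 with S9, -0.33 without S9 and -0.31 on the log2(CPM + 1) scale. Of 13 measured genes of prostaglandin synthesis and transport, these 2 included, 8 were called lower and 4 higher in the first step. In the second 1 was called lower and 5 higher, and with quantile-normalized values 3 were lower. PTGES, the synthase that takes the product of PTGS2 to prostaglandin E, differed by -1.67 in the first step (SE 0.07, limma adjusted p = 1.28e-06) and by 0.54 in the second. PTGS1, the constitutive cyclooxygenase, differed by 1.01 in the first step and by 1.05 in the second.

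Chemokines and a cytokine were the next members. CXCL2, a neutrophil chemokine (chr4:74097035-74099293, minus strand), read 7.34, 7.39 and 7.22 in S1 to S3, 5.30, 5.21 and 5.08 in S4 to S6, and 4.28, 4.36 and 4.20 in S7 to S9. CCL20, a chemokine for CCR6-bearing cells, read 4.22, 4.33 and 4.19 in S1 to S3, 2.20, 1.93 and 1.47 in S4 to S6, and 1.43, 1.38 and 0.61 in S7 to S9. In CXCL2 the 3 groups were tight and apart, while in CCL20 S6 lay next to S7, at 1.47 and 1.43, and S9 was lowest. The second step of CCL20 was -0.73, and -0.46 without S9. IL1A, interleukin 1 alpha, read 6.51, 6.51 and 6.21 in S1 to S3, 4.42, 4.32 and 4.18 in S4 to S6, and 3.63, 3.64 and 3.47 in S7 to S9, with steps of -2.10 and -0.73. IFI44L, an interferon-induced gene, read 2.80, 2.61 and 2.70 in S1 to S3, 1.67, 1.27 and 1.55 in S4 to S6, and 0.82, 0.51 and 0.51 in S7 to S9, with steps of -1.20 and -0.89.

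Sequence of CXCL2 and CCL20 is shown because both hold the NF-kB motif GGNNTTTCC within 100 bases of the start, CXCL2 in 2 copies. These stretches come from the RefSeq windows (GRCh38.p14), with the motif in capitals. CCL20 is on the plus strand and its match is on the opposite strand.
CXCL2, chr4:74099224-74099312: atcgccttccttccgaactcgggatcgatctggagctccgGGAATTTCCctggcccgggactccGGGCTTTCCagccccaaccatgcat
CCL20, chr2:227813723-227813811: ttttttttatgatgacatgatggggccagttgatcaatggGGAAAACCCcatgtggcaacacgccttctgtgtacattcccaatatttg

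The NF-kB motif stood in 5 of 79 members (6.33%), the others being LIPA, PHLDA1 and TNIP3, and in 8.18% of 9357 genes. Short-lived messages of cytokines and early response genes are known for AU-rich elements in the 3′ UTR. In the 30 bases of the 3′ UTR with the most ATTTA, CXCL2 and ERN1 held it 5 times. PTGS2, EREG, IL1A, ADM2, OSMR, SIPA1L2 and SLCO4C1 held it 3 times, while CCL20 and EGR1 held it 1 time. The stretches of 4 of these members are printed in the sense of the transcript as DNA, with ATTTA in capitals. They come from the GENCODE 29 annotation of GRCh38.
CXCL2, chr4:74097590-74097619, minus strand: aagtcttctATTTATTTATTTATTTATTTA
PTGS2, chr1:186674323-186674352, minus strand: aagtctaatgatcatATTTATTTATTTAta
EREG, chr4:74387365-74387394, plus strand: aatccATTTAtttcATTTAcaaaagATTTA
IL1A, chr2:112774424-112774453, minus strand: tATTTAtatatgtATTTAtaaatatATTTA

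The longer AU-rich form TTATTTATT, which contains TATTTAT, stood in 15 of the 92 members with a 3′ UTR (16.3%) and in 8.41% of 11290 genes. TATTTAT stood in 45 members (48.9%) and in 32.2% of genes, and per kb of 3′ UTR there were 0.549 in the members and 0.333 in all genes. The 3′ UTRs of the members had a median of 1140 bases and those of all genes 1030. The 15 members with TTATTTATT were COPS8, CRELD1, CXCL2, DDIT3, EREG, ERO1B, ETNK1, LURAP1L, OSGIN2, OSMR, PHLDA1, PTGS2, SIPA1L2, SLC7A11 and STARD4. Nothing was measured here about the stability of these messages.

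The wider inflammatory list went different ways in the 2 steps. Of 34 measured genes of NF-kB and inflammation, 29 were called lower and 3 higher in the first step, with a median of -0.95. In the second step 6 were called lower and 12 higher, with a median of 0.14, and 10 were lower when library medians were centred. The 4 members of this list (PTGS2, CXCL2, CCL20 and IL1A) are thus a part of it chosen for the second step. NFKB1, a subunit of NF-kB, differed by -0.24 in the first step and by -0.15 in the second. Interferon-stimulated genes did so too: 30 of 38 were called lower and 3 higher in the first step, and 2 lower and 22 higher in the second, IFI44L being the one member. The remaining inflammatory members were RBCK1, a subunit of the linear ubiquitin ligase (-1.21 and -0.82), IRF5 (-1.29 and -0.62), TNIP3, NFIL3 and OSMR, the oncostatin M receptor (-0.56 and -0.52).

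**Figure D5:**
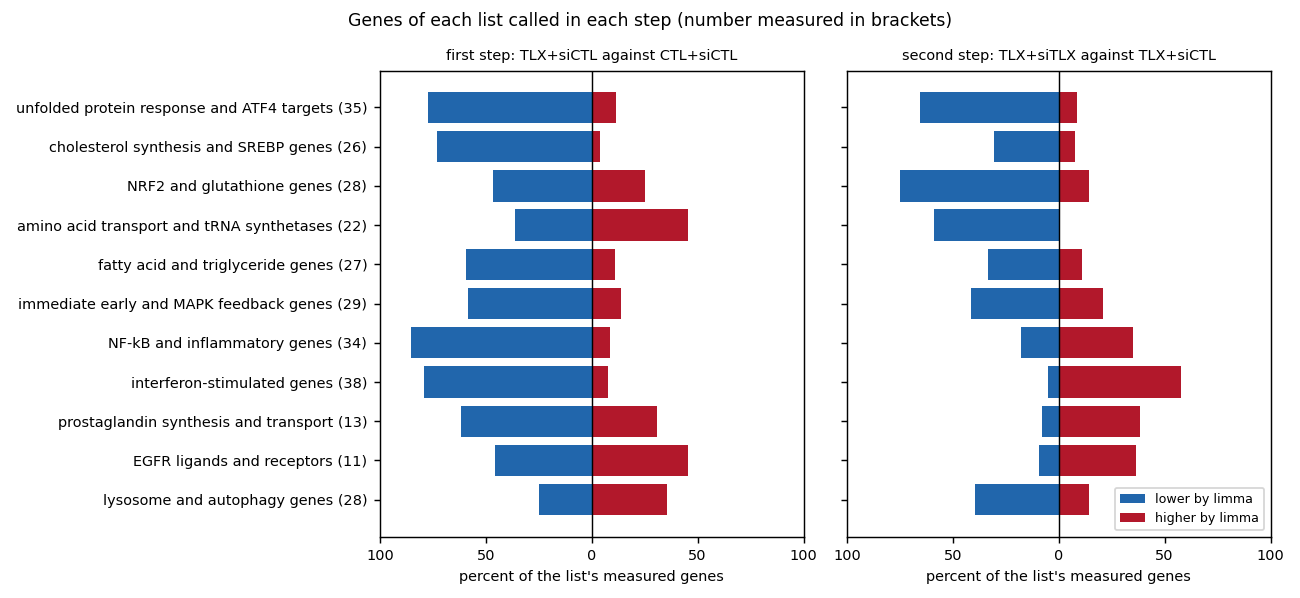
For 11 gene lists, bars show the percent of measured genes that limma called lower (blue, to the left) and higher (red, to the right) in the first step (left panel) and the second (right panel). Blue bars are the longer in both panels for the unfolded protein response, cholesterol, NRF2, fatty acid and immediate early lists. For the NF-kB, interferon and prostaglandin lists the longer bar changes from blue to red, and for the amino acid and lysosome lists from red to blue. For the EGFR list the bars are equal in the first step and the red bar is the longer in the second. The lists include the members.

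Growth factors, early response genes and transcription factors numbered 9, and in all 9 the first step was the larger. EREG (epiregulin, a ligand of EGFR and ERBB4, chr4:74365143-74388751, plus strand) lies 266 kb from CXCL2. It read 10.14, 10.15 and 10.03 in S1 to S3, 7.57, 7.63 and 7.13 in S4 to S6, and 6.85, 6.83 and 6.46 in S7 to S9. Control libraries were within 0.12 of each other, S6 was the lowest of TLX+siCTL and S9 of TLX+siTLX, and the steps were -2.66 and -0.73. Its upstream window is shown because it holds AAGTCA, the half-site that TLX can bind, on the opposite strand (RefSeq, GRCh38.p14, plus strand, match in capitals).
EREG, chr4:74364972-74365057: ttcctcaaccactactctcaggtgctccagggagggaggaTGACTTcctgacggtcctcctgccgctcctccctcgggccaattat

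AAGTCA stood in 7 of the 79 members (8.86%), the others being LIPA, LURAP1L, PLA2G4A, SERPINE2, TGIF1 and TNIP3, and in 9.84% of 9357 genes. Of 11 measured EGFR ligands and receptors, EREG included, 5 were called lower and 5 higher in the first step, and 1 lower and 4 higher in the second. EGFR itself differed by 0.34 and -0.04. EGR1, an immediate early zinc finger factor, read 7.82, 7.83 and 7.55 in S1 to S3, 5.40, 5.67 and 5.07 in S4 to S6, and 4.53, 4.62 and 4.44 in S7 to S9, with S6 lowest of its group and steps of -2.35 and -0.85. PHLDA1, an early response gene, read 10.75, 10.75 and 10.62 in S1 to S3, 9.93, 9.91 and 9.89 in S4 to S6, and 9.12, 9.20 and 9.15 in S7 to S9, and its libraries agreed within 0.13 in each group. Of 29 measured immediate early and MAPK feedback genes 17 were called lower and 4 higher in the first step, and 12 lower and 6 higher in the second (17 lower when medians were centred). FOS, a defining gene of that list, differed by -1.56 and -0.16. PTHLH, which encodes parathyroid hormone-related protein, had the lowest mean level of the 96 genes (1.14) and steps of -1.90 and -0.51. Its value in S4 (0.29) was below that in S7 (0.38), so these groups overlapped. The group also held MXD1, a partner of MAX that opposes MYC, BACH1, a haem-regulated repressor, TGIF1, FZD8 and MAP3K12, with total differences from -1.09 to -1.75.

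Transporters, membrane and vesicle genes numbered 15 and had the largest median first step, -1.39, with a second of -0.70. SLC14A1, a urea transporter, read 6.02, 5.93 and 5.76 in S1 to S3, 2.80, 2.98 and 2.26 in S4 to S6, and 1.72, 1.66 and 1.01 in S7 to S9. Its first step, -3.22, was the largest of the 96 genes, and it was 21.7-fold lower in all. SLCO4C1, an organic anion transporter, read 6.06, 6.02 and 6.06 in S1 to S3, 3.48, 3.33 and 2.90 in S4 to S6, and 2.42, 2.27 and 2.21 in S7 to S9, with tight control libraries and steps of -2.81 and -0.94. SLC22A15, of the organic cation and zwitterion carriers, read 6.18, 6.20 and 6.04 in S1 to S3, 4.77, 4.70 and 4.76 in S4 to S6, and 3.88, 3.84 and 3.44 in S7 to S9. Both steps of SLC22A15 passed 2-fold (-1.39 and -1.02). CACNG7, an auxiliary subunit of calcium channels and AMPA receptors, read 3.50, 3.37 and 3.50 in S1 to S3, 1.38, 1.57 and 1.09 in S4 to S6, and 0.14, 0.54 and 0.24 in S7 to S9. Its second step was -1.04, and -0.66 on the log2(CPM + 1) scale.

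The membrane protein TMEM45B read 4.63, 4.74 and 4.59 in S1 to S3, 2.18, 2.41 and 2.28 in S4 to S6, and 1.60, 1.20 and 1.44 in S7 to S9, and TMEM156 read 5.001, 4.88 and 4.82 in S1 to S3, 2.83, 2.86 and 2.57 in S4 to S6, and 2.06, 2.000 and 2.10 in S7 to S9. In both, most of the difference was in the first step (-2.37 and -2.15). LAMP3, a lysosome-associated membrane protein induced by stress and interferon, read 4.49, 4.48 and 4.19 in S1 to S3, 2.80, 3.03 and 2.77 in S4 to S6, and 1.89, 1.69 and 1.84 in S7 to S9, with steps of -1.52 and -1.06. ATP6V0D2, a subunit of the proton pump of acidic vesicles, read 5.08, 4.98 and 4.88 in S1 to S3, 3.10, 3.28 and 3.01 in S4 to S6, and 2.58, 2.73 and 2.35 in S7 to S9. Its second step was -0.48 without S9. GABARAPL1, an autophagy protein of the ATG8 family, read 7.23, 7.12 and 6.997 in S1 to S3, 6.48, 6.53 and 6.55 in S4 to S6, and 5.999, 5.79 and 5.85 in S7 to S9, with steps of -0.60 and -0.64. ATP6V0D2 and GABARAPL1 are the members among 28 measured lysosome and autophagy genes, of which 7 were called lower and 10 higher in the first step and 11 lower and 4 higher in the second. LAMP1, a defining gene of that list, differed by 0.17 and -0.08. The remaining 6 genes of the group, among them C9orf72, MFSD9 and TM4SF19, had total differences from -1.09 (TVP23C) to -1.86 (TVP23C-CDRT4). These 2 last genes overlap in the genome and can share reads.

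Signalling, cytoskeleton and protease genes numbered 12. RND1, a small GTPase that loosens actin fibres, read 3.86, 3.74 and 3.37 in S1 to S3, 0.93, 1.32 and 0.52 in S4 to S6, and -0.66, -0.74 and 0.30 in S7 to S9. S9 was 0.97 above S7 and 1.05 above S8, where it had been lowest in the sterol genes, and the steps were -2.73 and -1.29 (second step -1.63 without S9 and -0.70 on the log2(CPM + 1) scale). SIPA1L2, a RAP GTPase activator, read 4.87, 4.86 and 4.62 in S1 to S3, 2.25, 2.09 and 1.77 in S4 to S6, and 1.04, 1.43 and 1.08 in S7 to S9, with steps of -2.75 and -0.85. S100P, a calcium-binding protein often found in carcinomas, read 5.25, 5.26 and 5.15 in S1 to S3, 2.97, 3.06 and 2.52 in S4 to S6, and 2.08, 2.20 and 2.42 in S7 to S9, where S6 (2.52) came within 0.10 of S9 (2.42). The other 9 genes of this group had total differences from -1.12 (CDKL3) to -2.11 (LURAP1L), and included the protease inhibitors SERPINB8 and SERPINE2, the peptidases MIPEP and RNPEPL1, the kinesin KIF7 of the hedgehog pathway, CCNYL1, a cyclin Y-like protein, and PPP1R9A (neurabin). In CDKL3 S5 (1.07) was below S7 (1.09).

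Among 12 genes of RNA, chromatin and protein turnover DDX10, an RNA helicase of ribosome assembly, stood apart. It read 8.85, 8.84 and 8.62 in S1 to S3, 6.82, 6.89 and 6.65 in S4 to S6, and 6.10, 6.01 and 5.93 in S7 to S9, with steps of -1.99 and -0.77. In the other 11 the second step, at -0.52 to -0.85, was of about the size of the first, at -0.50 to -0.82, and total differences ran from -1.06 (COPS8, a subunit of the COP9 signalosome) to -1.63 (MYSM1, a histone deubiquitinase). They included the tRNA-modifying enzyme TYW5, the selenium enzyme SEPHS2, the zinc finger genes ZNF140 and ZNF555, the nuclear receptor coactivator PNRC1, NSUN7, MBD6 and HSPBAP1. SMG1P2 of this group is a pseudogene of SMG1 and its reads can be split with those of its copies. The last 8 genes, KLHDC7B among them, had no shared role: C11orf96, OSGIN2, CCDC163, C1orf198, TGDS and the unnamed loci AC207056.1 and BX664718.2 had total differences from -1.14 to -2.12.

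Cell cycle genes moved in the opposite direction beside the 96. Of 28 S phase and mitosis genes 27 were called higher in the first step (median 1.21) and 27 in the second (median 1.04), and none was called lower. None is a member, and their part in the values of the 96 genes was not tested.

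In the genome the 96 genes were spread over the chromosomes, with 13 on chromosome 1, 11 on chromosome 2 and 10 on chromosome 12 of the 93 that could be placed, against 10.3%, 6.82% and 5.25% of all genes. These are 14.0%, 11.8% and 10.8% of the 93. Some lay close together: besides PTGS2 and PLA2G4A, TRIB3 and RBCK1 were 9.94 kb apart on chromosome 20, and ADM2 and KLHDC7B 59.5 kb apart on chromosome 22. Protein-coding genes were 95.8% of the 96 and 95.7% of all 11886. The median gene length was 26.2 kb, against 34.0 kb over all genes, and the upstream windows had a median GC content of 64.4%, against 64.8%.

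Some libraries of a group stood to one side in these genes. The median over the 96 genes of a library's distance from its group mean was -0.08 in S3, -0.05 in S6 and -0.09 in S9, and between 0.02 and 0.05 in the other 6 libraries, while over all 11886 genes it stayed between -0.01 and 0.01. In S3 75 of the 96 genes were below their group mean, in S6 66 and in S9 66. These 3 libraries are the last column of their group in the deposited table, whose column names pair no libraries across groups, and what they share was not tested. For the 14 sterol, lipid and fuel genes the median was -0.19 in S9, with 12 of 14 below, -0.12 in S6, with 13 of 14 below, and -0.03 in S3, with 10 of 14 below. Without S9 all 96 genes were still lower in the second step, by 0.26 to 2.71, with a median of -0.67, and 78 of them passed the limit. Among the 18 that did not were ATP6V0D2, BACH1, CCL20, ERN1, ERO1B, FDFT1, FDPS, HSPA5, IDH1, MSMO1, NFIL3, OSGIN2, OSMR, PLA2G4A, PTHLH, SLC7A11 and ZNF555.

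The limits of the choice cut through a continuum. In the first step SLC7A11, COPS8 and TGDS were just inside, at -0.50, -0.502 and -0.503, and CCT6P3, CYP27A1 and POU2F2 just outside, at -0.499, -0.495 and -0.495. In the second step HSPA5 (-0.502), FDPS (-0.508) and MSMO1 (-0.508) were just inside, and DYRK3 (-0.498), INTS6 (-0.498) and HOXD1 (-0.496) just outside. For the mean level PTHLH (1.14), CDKL3 (1.33) and RND1 (1.41) were the lowest inside, and NPR2 (0.89), FOCAD (0.86) and HEY1 (0.86) just outside.

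In the authors' deposited table all 96 genes had a negative fold change in each of the 3 comparisons. Its false discovery rate was under 0.05 for 96 of them in the first step, 93 in the second and 96 over the total difference. Of all 11886 genes, 6722, 5725 and 7473 were under 0.05 in these comparisons, in either direction. The 96 genes were chosen on values of the same libraries, so their counts and signs are a description. For KLHDC7B the authors' deposited table gives fold changes of -6.62 and -6.77, for VNN3 -7.97 and -4.09, and for PTGS2 -6.79 and -4.16, where a fall is written as minus the inverse ratio.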

How the data were processed

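RNA was sequenced from 9 samples of MDA-MB-231 cells. The authors deposited log2 CPM values for 27548 rows and a table of signed fold changes with p-values and false discovery rates (FDR), per the file headers. Kallisto 0.44.0, limma, edgeR and GRCh38 are named in the submitters' processing notes, with no role given. The lowest log2 value, -5.33, was the same in all libraries and stands for a count of 0 with a prior count added, which makes differences at low read numbers too small. Read counts were rebuilt from it and are estimates, since 14.4% to 15.1% of rows were whole within 0.01. Table columns carry running numbers and were matched to groups, with 0 left unmapped.

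All rows were fitted with limma 3.58.1 in R 4.3.3 (3 group means, intensity trend, two-sided, Benjamini-Hochberg over 27548 rows, threshold 0.05), after tests on simulated data. Members, gene lists and tests were chosen with earlier results of these data known, and role groups after the members were seen. Lists count genes with a mean log2 CPM of 1 or more. Values in each library are given for VNN3, KLHDC7B, the 20 members with the largest total difference, the 10 with the largest smaller step and all members in a list, except that 2 of the 96 members are not reported by name here. Non-members named from a list are among its first 3 measured genes. Genes were placed with GENCODE 29. RefSeq upstream windows were found for 79 members. Alternatives were other normalizations, limits and left-out libraries.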

Additional observations from a re-analysis of the deposited data

How the results depend on the processing

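No paired analysis was possible because the table columns carry running numbers that match no replicate number of the labels, so a replicate block could not be set. The number of genes lower in both steps followed the limit on the difference: it was 96 at 0.5, 385 at 0.3 and 10 at 1. It ran from 87 (without S9) to 111 (without S8) when 1 library was left out, and 60 genes were kept in every such set. It was 123 after quantile normalization (89 of the 96 kept), 100 with library medians centred (91 kept), 95 with group medians (80 kept) and 78 on the log2(CPM + 1) scale. None of the 96 genes changed direction in either step under these normalizations, with group medians or with 1 library left out. The rule kept only genes at least 0.5 lower in both steps on these same values, so this outcome was largely fixed by the choice. Of the named genes outside the 96, EGFR (second step -0.04) turned to 0.02 without S9 and 0.0013 without S6, and both steps of KLHDC1 (-0.01 and 0.05) changed sign, to 0.07 and -0.09 after quantile normalization, the first to 0.01 with library medians centred, and either with some libraries left out. The numbers of genes that limma called stayed within 1.5 times their main value in each comparison. Depth limits the precision of genes with few reads, such as KLHDC7B, with 33.9 to 42.4 rebuilt reads in TLX+siTLX. The lists without S9 were an alternative chosen after seeing the data.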
